A study of Mus musculus with 4 samples.

Results

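The immunoglobulin heavy chain (Igh) constant locus was described over 280 bins of 1 kb on chromosome 12 of the mouse assembly mm9, from 114400001 to 114680000, out of 2654907 such bins in the genome. The bins were taken by position, with no use of their values, and cover the 8 constant genes, their switch regions, the J segments, the intron between J and Ighm, and the 3′ region downstream of Igha. Signal is H3K4 chromatin immunoprecipitation sequencing (ChIP-seq) of native mononucleosomes cut with micrococcal nuclease. Of the 4 samples of the series, 2 were used, 1 library of PA1-knockout and 1 of wild-type B cells labelled H3K4, and the other 2 were not analysed here. Per the labels, splenic B cells of mice aged 6 to 14 weeks, depleted of CD43-positive cells, were cultured for 2 days with 25 µg/ml LPS and either 2.5 ng/ml anti-IgD-dextran or 5 ng/ml IL-4. The labels of these 2 samples give neither which of the additions was used, nor the methylation state of H3K4, nor the PA1 allele or a Cre line, nor the number of mice in a library.

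The constant genes lie in the order Ighm, Ighd, Ighg3, Ighg1, Ighg2b, Ighg2c, Ighe and Igha along the direction of transcription, which is the minus strand. In class switching, the deaminase AID acts on transcribed, repeat-rich switch regions, and the break at the Ighm switch region is joined to one upstream of another constant gene, after germline transcription from a promoter upstream of the accepting switch region. The intronic enhancer Eμ lies between J and the Ighm switch region, and the enhancers of the 3′ region act on germline transcription and switching over long distances. In that 3′ region a palindrome of near-identical inverted copies surrounds the enhancer hs1,2, and further hypersensitive sites lie beyond it. PA1 binds PTIP, and both belong to the complexes of MLL3 and MLL4, which methylate H3K4.

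The sequences below carry the comparison: the 200 bp bin with the most reads in the switch region of Ighm, in the Ighg3 and Ighg2b peaks and in the 3′ region. All are from NCBIM37, the assembly that mm9 also is, on the minus strand and 5′ to 3′, and capitals mark AGCT, the hotspot of AID in switch repeats.
Ighm switch, bin with the most reads, chr12:114663601-114663800: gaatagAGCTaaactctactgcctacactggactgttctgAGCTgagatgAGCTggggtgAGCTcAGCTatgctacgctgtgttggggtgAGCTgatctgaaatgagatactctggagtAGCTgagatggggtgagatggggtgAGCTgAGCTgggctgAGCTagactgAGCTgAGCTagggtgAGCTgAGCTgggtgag
Ighg3, bin with the most reads, chr12:114601001-114601200: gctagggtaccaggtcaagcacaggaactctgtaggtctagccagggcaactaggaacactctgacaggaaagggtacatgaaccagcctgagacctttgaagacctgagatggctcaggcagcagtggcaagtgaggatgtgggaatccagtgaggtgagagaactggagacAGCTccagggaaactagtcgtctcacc
Ighg2b, bin with the most reads, chr12:114551601-114551800: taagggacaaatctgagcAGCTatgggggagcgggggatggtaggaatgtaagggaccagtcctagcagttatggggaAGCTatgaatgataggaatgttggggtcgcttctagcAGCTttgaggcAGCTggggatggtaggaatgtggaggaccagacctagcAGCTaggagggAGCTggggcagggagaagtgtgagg
3′ region, bin with the most reads, chr12:114460401-114460600: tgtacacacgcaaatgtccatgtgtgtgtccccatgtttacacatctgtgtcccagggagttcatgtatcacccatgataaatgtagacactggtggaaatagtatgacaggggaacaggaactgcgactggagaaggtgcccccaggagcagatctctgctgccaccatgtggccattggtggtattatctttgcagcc
The Ighm bin held 14 AGCT and 13 GAGCT matches, the Ighg2b bin 6 AGCT, the Ighg3 bin 1 AGCT and the bin of the 3′ region 0 AGCT. The Ighg3 bin was the outermost of its switch stretch on the side of the gene.

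Eμ and the 3′ enhancers are known to carry the octamer, the site of the POU factors Oct-1 and Oct-2. Its letters ATGCAAAT on either strand were found 2 times in the 3′ region and 1 time in the J to Cμ intron, and each match is shown in capitals with its surrounding 200 bp, on the same strand and assembly.
J to Cμ intron, octamer, chr12:114665539-114665738: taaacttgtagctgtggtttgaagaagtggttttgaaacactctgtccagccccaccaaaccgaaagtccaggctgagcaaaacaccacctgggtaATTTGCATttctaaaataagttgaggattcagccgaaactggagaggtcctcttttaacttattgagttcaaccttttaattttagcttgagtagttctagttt
3′ region between the inverted copies, octamer, chr12:114483022-114483221: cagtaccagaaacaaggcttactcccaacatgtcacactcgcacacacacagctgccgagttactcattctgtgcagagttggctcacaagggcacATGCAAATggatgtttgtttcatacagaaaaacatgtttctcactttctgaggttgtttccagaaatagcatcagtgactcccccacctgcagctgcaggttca
3′ region beyond the inverted copies, octamer, chr12:114466465-114466664: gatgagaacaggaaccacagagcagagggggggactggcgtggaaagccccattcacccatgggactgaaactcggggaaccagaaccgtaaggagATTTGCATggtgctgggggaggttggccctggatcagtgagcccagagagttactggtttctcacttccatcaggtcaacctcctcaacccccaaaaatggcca
An octamer was present in 19 of the 280 bins of the window (6.79%), against 8.39% of all 1 kb bins of chromosome 12, so these matches describe the sequence and mark no excess. The 200 bp around the J to Cμ octamer held 33 knockout and 11 wild-type reads, those around the octamer between the inverted copies 0 and 2, and those beyond them 2 and 1.

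Each library was 1 file of 25-base reads without repeated positions, with 5259995 knockout and 5539475 wild-type nuclear reads, so no ratio below has a replicate check and no test between genotypes was possible. Reads in the window numbered 3140 in the knockout library and 4592 in the wild-type library, or 0.0597% and 0.0829% of each. Ratios are knockout over wild type after scaling on promoters, each with a 95% interval that covers counting error only, because amplified reads carry no molecular identifiers and need not be separate molecules. The promoter of the targeted gene (2900092E17Rik) held 114 knockout and 261 wild-type reads, but a mark outside the deleted part would not check the genotype. Promoters of 8 B cell marker genes held 282 to 570 knockout and 342 to 585 wild-type reads. The 8 T and NK cell genes summed to 154 knockout and 188 wild-type reads, the 7 myeloid genes to 49 and 58, and the 3 erythroid genes to 163 and 182, and their part in the results was not tested. Among their defining markers, Cd3d held 0 knockout and 2 wild-type reads, Cd3e 1 and 0, Ncr1 0 and 1, and Csf1r 0 and 0. The mismatched bases of window reads, 248 knockout and 293 wild-type, piled up to at most 2 at any position.

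The locus was richer in H3K4 signal than the genome, and its signal was lower in the knockout library in part of it. Fewer cells with the mark and less mark per cell cannot be told apart in such libraries of many cells. Bins of the window averaged 11.2 knockout and 16.4 wild-type reads, against genome means of 1.98 and 2.09. At 20 or more reads in both libraries together, 44 of the 280 bins were compared (15.7%, against 2.27% of the bins of the genome). Of these 44 bins, 15 were lower in the knockout library by at least 1.5-fold with an interval excluding 1, or 34.1%, against 5.20% of the 60359 bins of the genome compared by the same rule. None of the 44 was higher by that rule, against 6.00% in the genome. The median log2 ratio, with 0.5 added to each count, was -0.50 for the 44 bins and 0.03 for those of the genome. The lower bins fell into blocks, with 6 of 8 compared in the Ighg3 unit, 6 of 7 in the Ighg2b unit, 1 of 10 in the 3′ region, 1 of 2 at Tmem121 and 1 of 1 in the neighbouring gene 4930427A07Rik. None was lower of the 10 compared in the Ighm unit, the 1 in Igha, the 1 in Ighd, the 1 over the J segments or the 3 upstream of them.

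**Figure D1:**
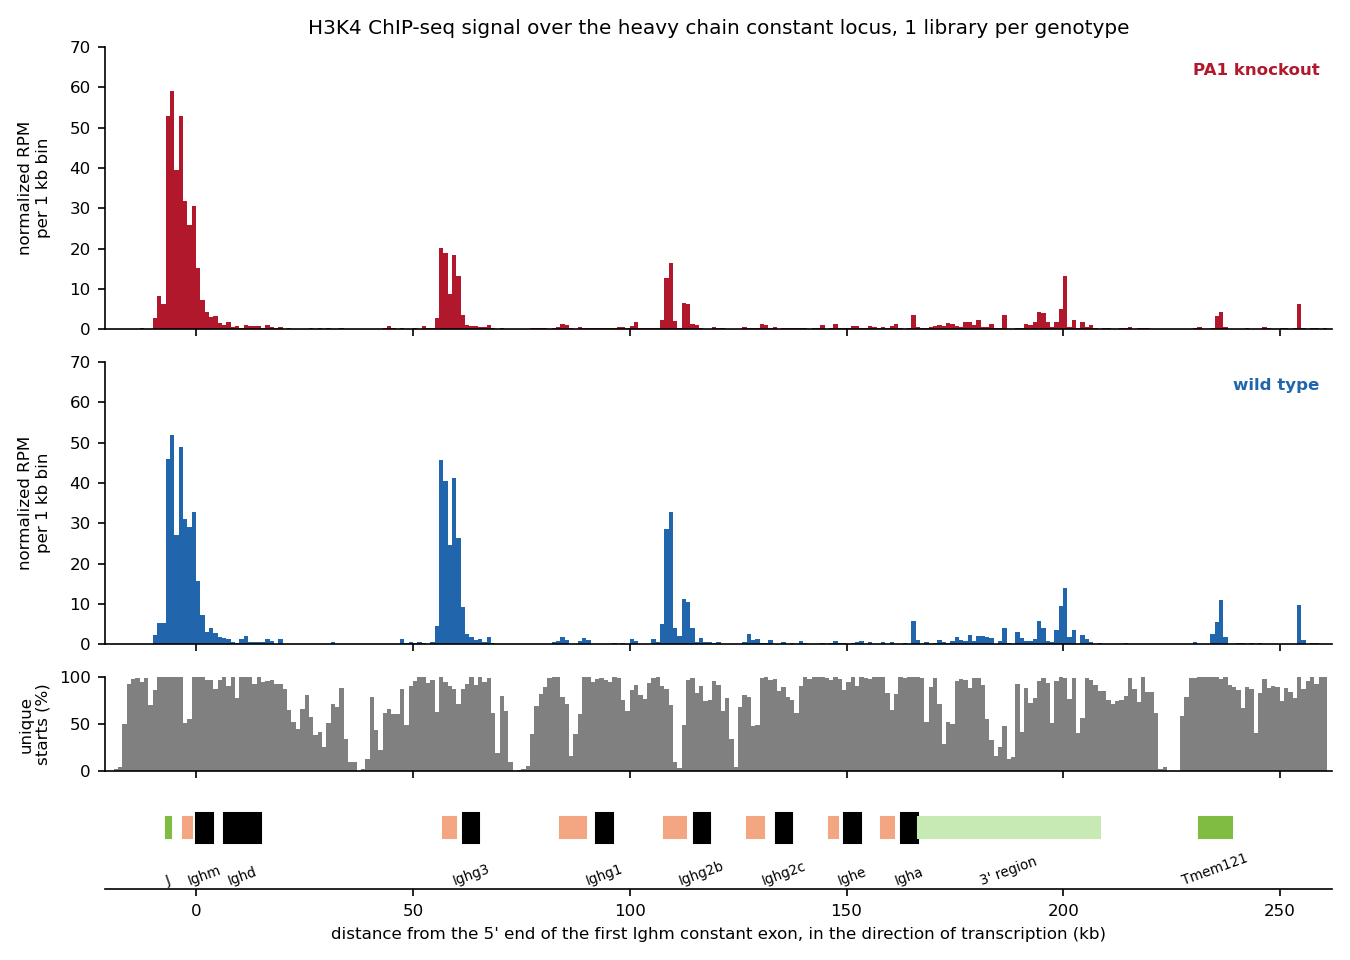
Normalized RPM in each 1 kb bin for the PA1-knockout library (top) and the wild-type library (below it), the share of bases where a 25-base read is unique in the genome (grey), and the elements (black, constant genes; orange, AGCT-rich switch stretches; green, J segments, the 3′ region and Tmem121), against distance from the 5′ end of Ighm. The peaks at Ighg3 and Ighg2b were lower in the knockout library, while those over J and Ighm were of similar height. At the far end of the 3′ region the highest bin was of similar height, and its neighbour nearer to Igha was lower in the knockout library.

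The lowest ratio among the lower bins was that of 114546001 to 114547000, just upstream of Ighg2b, with 6 knockout and 23 wild-type reads, at a ratio of 0.298 (0.0992 to 0.752). The highest was that of 114406001 to 114407000 in 4930427A07Rik, with 31 and 56 reads, at a ratio of 0.632 (0.394 to 0.997). The largest counts among lower bins were in Ighg3, where 114604001 to 114605000 held 102 knockout and 264 wild-type reads (ratio 0.441, 0.347 to 0.556).

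Reads cannot be placed evenly over this repetitive locus, which bears on a 0 wherever few positions are unique. All 3140 knockout and 4592 wild-type window reads started at 25-base sequences that occur 1 time in the genome, and 77% of the window's positions are such sequences. In 25 bins under 20% of positions were unique, and these held 15 knockout and 39 wild-type reads. In all, 46 bins held 0 reads in both libraries. Some of these were almost wholly unique, such as those from 114515001 (99.6% of positions) and 114672001 (99.4%), and others were not. Upstream of Ighg1, 114584001 to 114589000 held 0 reads in both, and between 0.2% and 10% of positions in each of these 5 bins were unique, so the absence of reads there does not show an absence of signal.

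A total of 13 islands of enrichment, called on both libraries together, held 81.9% of the knockout and 82.1% of the wild-type window reads. Of the 13, 6 were lower in the knockout library by the same rule, or 46.2%, against 5.39% of the 24957 islands of the genome, and 0 were higher, against 3.35%. The 6 were those of Ighg3, the 2 of Ighg2b, the 2 at Tmem121 and the 1 in 4930427A07Rik. The islands of Ighm, J, Igha and the 3′ region made up the other 7. Within islands, 131 bins of 200 bp had 10 or more reads, of which 32 were lower (24.4%, against 2.77% of 171303 such bins in the genome) and 3 higher (2.29%, against 4.53%).

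The 3′ region, from the 3′ end of Igha to the nearest other annotated gene (114452464 to 114494459), held 321 knockout and 459 wild-type reads, or 63.5 and 79.6 normalized RPM (scaled reads per 1000000 reads of the nuclear genome). Its ratio was 0.798 (0.690 to 0.923), short of 1.5-fold, and at 0.92 its interval included 1 when a trend with GC content and level was removed. The difference was smaller than at Ighg3 and Ighg2b: on the log2 scale the ratio of the 3′ region exceeded that of the Ighg3 unit by 0.82 (0.56 to 1.07) and that of the Ighg2b unit by 0.63 (0.34 to 0.92). It was below that of the Ighm unit by -0.42 (-0.65 to -0.18), but with the trend removed the ratios were 0.92 (0.795 to 1.06) for the 3′ region and 0.951 (0.881 to 1.03) for the Ighm unit, so this difference depends on the processing. Per kb, the region had 1.51 knockout and 1.90 wild-type RPM, against genome means of 0.392 and 0.362. Of its 10 bins compared, 9 had a ratio below 1, with a range of 0.514 to 1.14 and a median of 0.734.

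Most of the reads of the 3′ region lay far from Igha. The stretch of the region farthest from Igha, up to 114466461, held 56.4% of its knockout reads (50.8% to 61.9%) and 58.6% of its wild-type reads (53.9% to 63.2%), exact binomial intervals as for all shares below. The middle stretch, from there to 114480459, held 20.2% (16% to 25.1%) and 25.7% (21.8% to 30.0%). The stretch next to Igha held 23.4% (18.8% to 28.4%) of knockout and 15.7% (12.5% to 19.3%) of wild-type reads, or 75 and 72 reads. Its share was larger in the knockout library, although the intervals overlap slightly and do not cover variation between cultures. Unique positions fell to 12.9% in a bin of the middle stretch and to 29% in a bin of the stretch next to Igha. In the farthest stretch the lowest bin had 40.6%, so these shares of reads are not shares of signal.

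The strongest island of the 3′ region lay 33.9 kb downstream of Igha (114459601 to 114461600), with 91 knockout and 137 wild-type reads, at a ratio of 0.758 (0.575 to 0.995). The 1 kb farther from Igha held 48 knockout and 51 wild-type reads, and the 1 kb nearer to Igha 43 and 86. As a share of the island, the nearer part held 47.3% (36.7% to 58.0%) of knockout reads and 62.8% (54.1% to 70.9%) of wild-type reads, intervals that overlap. With reads moved by 100 bp these shares were 52.7% and 62.8%, and with no shift 54.4% and 65.4%. At the 75 bp shift the log2 ratio of the nearer part was below that of the farther part by -0.91 (-1.69 to -0.14). That interval excludes 0, covers counting error only and was not recomputed at the other shifts. The bin with the most reads, 114460401 to 114460600, printed above, held 32 knockout and 24 wild-type reads (ratio 1.52, 0.869 to 2.70), or 35.2% and 17.5% of the island. None of the 8 bins of 200 bp compared in the island was lower or higher by the rule. The neighbouring 1 kb bin from 114461001, with 25 and 55 reads, at a ratio of 0.519 (0.310 to 0.847), was the bin of the 3′ region called lower.

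The next island lay 28.4 kb downstream of Igha (114465601 to 114466600) and contained the octamer farther from Igha. It held 28 knockout and 36 wild-type reads, with a ratio of 0.888 (0.522 to 1.5), and its highest bin, 114466201 to 114466400, held 9 and 14. The bins of 200 bp around the octamer were not its summit. The island nearest to Igha, 19.9 kb downstream (114474401 to 114474800), held 14 knockout and 18 wild-type reads, at a ratio of 0.888 (0.409 to 1.89), with 10 and 9 in its highest bin. In this island 56.5% of positions were unique, so its reads undercount its signal. The median log2 ratio of the 3 islands, with the same constant added, was -0.17, against -0.01 for the 9554 islands of the genome over 5 kb from a protein-coding start.

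The inverted copies of the palindrome were found by aligning the 3′ region to itself. The 3 matches were 964, 2309 and 2366 bp long, with 96.1%, 96.5% and 96.3% identity, and their centres lay 12253 to 13778 bp downstream of Igha. The copies farther from Igha spanned 114470143 to 114477333, and those nearer to it 114487096 to 114492663. The share of unique positions dropped at the copies, to 12.9% in the bin from 114473001 and to 29% in that from 114488001. Among the copies farther from Igha, the bin from 114474001, with the island just described, held 18 knockout and 23 wild-type reads, and that from 114471001, at 93.2% unique positions, held 2 and 17. In the centre of the palindrome, where at least 88.7% of positions in each bin were unique, 114480001 to 114481000 held 12 knockout and 12 wild-type reads, at a ratio of 1.14 (0.469 to 2.78). The 3 bins after it held 5 and 5, 9 and 14, and 9 and 5 reads, the last of them (114483001 to 114484000) with the central octamer. No ratio in these 4 bins had an interval excluding 1.

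**Figure D2:**
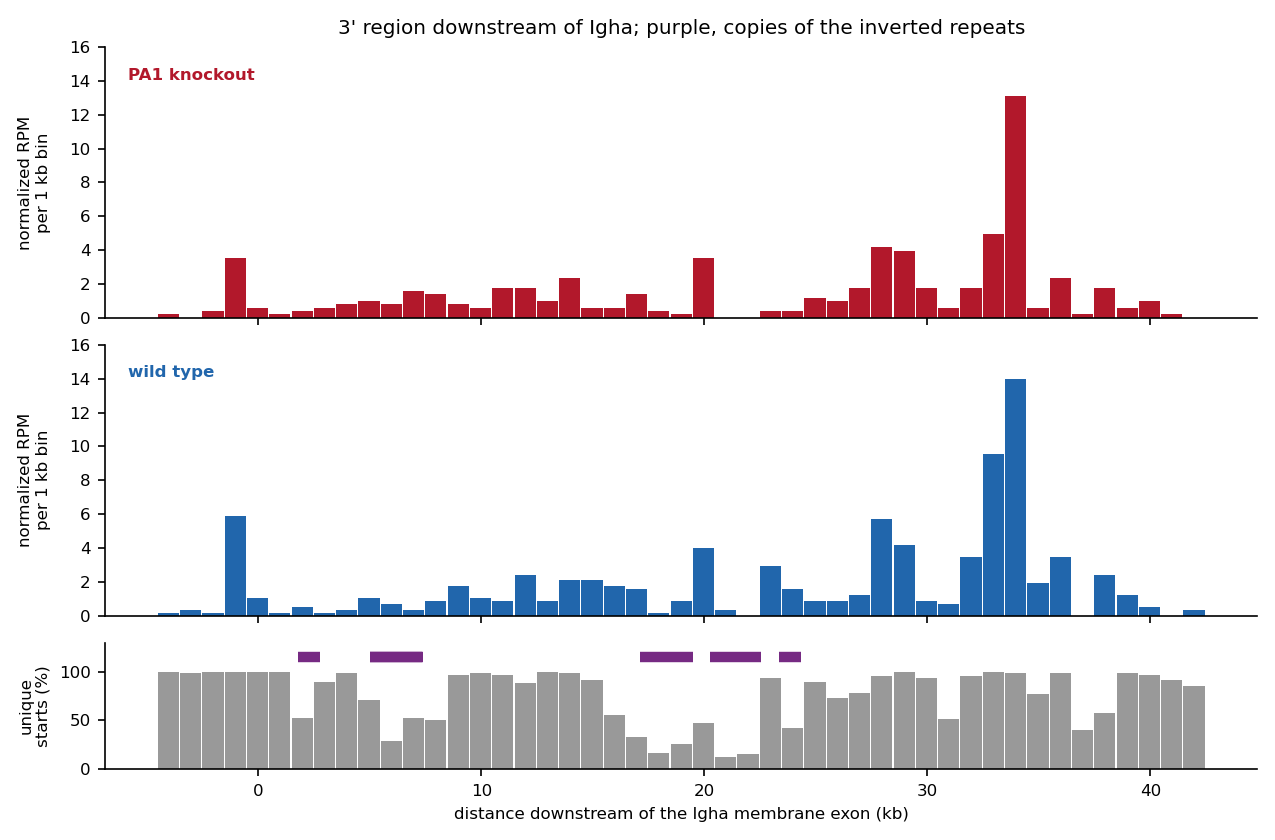
Normalized RPM per 1 kb bin downstream of the Igha membrane exon in the PA1-knockout library (top) and the wild-type library (below it), with the share of unique 25-base positions (grey) and the copies of the inverted repeats (purple). The highest bin, in the island 33.9 kb from Igha, was of similar height in both libraries, its neighbour nearer to Igha was lower in the knockout library, and unique positions were scarce at the purple copies.

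Igha encodes the constant part of IgA. Neither Igha nor Ighd is in the annotation used, GENCODE vM1, so both were placed by translated matches of the constant exons of the other genes, which gave 3 domain exons and 1 membrane exon for Igha (114494460 to 114498445) and 2 domain exons and 1 membrane exon for Ighd (114645975 to 114654524). The Igha unit, from there to the 3′ end of Ighe, held 52 knockout and 63 wild-type reads, at a ratio of 0.942 (0.640 to 1.38). The gene held 23 knockout and 43 wild-type reads (ratio 0.610, 0.351 to 1.04), and the sequence upstream of it 29 and 20 (ratio 1.65, 0.905 to 3.09). Neither interval excludes 1 as scaled here. With other processing that changed: the gene's interval was 0.324 to 0.956 when scaled to total reads and 0.284 to 0.836 when scaled to background, and that of the upstream sequence was 1.17 to 3.98 with the trend removed. On the log2 scale the upstream ratio exceeded that of the gene by 1.44 (0.34 to 2.54). Of the upstream reads, 8 knockout and 1 wild-type lay between gene and switch stretch, and the contrast without them was not computed. Per kb the upstream sequence had 0.624 knockout and 0.377 wild-type RPM, against genome means of 0.392 and 0.362.

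Within the Igha gene the reads lay downstream of the constant domains. The intron between the last domain exon and the membrane exon (114494568 to 114496981) held all 23 knockout reads of the gene and 41 of its 43 wild-type reads. Most were in 1 island of 600 bp (114495001 to 114495600), with 17 knockout and 30 wild-type reads, at a ratio of 0.647 (0.335 to 1.21), whose highest bin held 10 and 11. The Igha switch stretch, with 113 AGCT matches over 3000 bp and 83% of positions unique, held 8 knockout and 8 wild-type reads, or 0.528 and 0.462 RPM per kb, near the genome means of 0.392 and 0.362. Between gene and switch stretch, 8 knockout reads stood against 1 wild-type read, too few to place the ratio (9.13, 1.22 to 405). The Igha switch stretch had no island.

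Ighd, which encodes the constant part of IgD and is expressed with Ighm by splicing, had low signal next to Ighm but more than the genome mean. Per kb its unit had 1.15 knockout and 1.29 wild-type RPM, against genome means of 0.392 and 0.362. The sequence between Ighd and Ighm had 2.17 and 2.37. Its unit, to the 3′ end of Ighm, held 65 knockout and 83 wild-type reads, with a ratio of 0.894 (0.636 to 1.25). The gene held 36 and 47 reads (0.874, 0.55 to 1.38), and the 2639 bp between Ighd and Ighm 29 and 36 (0.919, 0.544 to 1.54). The reads were most frequent next to Ighm, where the bin from 114656001 held 17 knockout and 16 wild-type reads and was the only bin of the unit with 20 or more in all. No island was called in it. The log2 ratio differed from that of Ighm by -0.25 (-0.73 to 0.23), which includes 0, and exceeded that of Ighg3 by 0.98 (0.49 to 1.47). At this depth the ratio of Ighd could be told from that of Ighg3, its next neighbour downstream, but not from that of Ighm.

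Ighm and the J segments held the most signal of the locus. The Ighm unit, from its membrane exon to the nearest J segment, held 1268 knockout and 1358 wild-type reads, with 26.2 and 24.6 RPM per kb and a ratio of 1.07 (0.986 to 1.15). It made up 40.4% of the knockout and 29.6% of the wild-type reads of the window. Its reads and those of the J segments formed 2 large islands split at the centre of the switch stretch, where few positions are unique. The island over Ighm (114658201 to 114662600) held 417 and 505 reads (ratio 0.942, 0.826 to 1.08), and the island over the J to Cμ intron and the J segments (114663401 to 114670200) held 1273 and 1252 (ratio 1.16, 1.07 to 1.26). A small island in the Ighm membrane intron (114657401 to 114657800) held 11 and 13 reads.

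The J to Cμ intron upstream of the switch stretch (114664001 to 114666724) held 672 reads of the knockout and 652 of the wild-type library. Its ratio of 1.18 (1.05 to 1.31) became 0.95 when scaled to background and 0.911 with the GC and level trend removed. The J segments held 367 and 356 reads at 1.18 (1.01 to 1.37), and 0.95 when scaled to background. Scaling does not enter the shares of reads within this double peak. The J to Cμ intron held 39.7% (37.3% to 42.0%) of knockout and 37.0% (34.8% to 39.3%) of wild-type reads, and the J segments 21.7% (19.7% to 23.7%) and 20.2% (18.4% to 22.2%). The switch stretch held 17.2% (15.5% to 19.1%) and 19.7% (17.9% to 21.6%), and the sequence between gene and switch 9.80% (8.42% to 11.3%) and 11.8% (10.3% to 13.4%). All these intervals overlap. The log2 ratio of the J segments differed from the intron's by 0.00 (-0.26 to 0.26) and that of the Ighm gene by -0.17 (-0.54 to 0.19). The switch stretch differed from the intron by -0.29 (-0.57 to -0.02), and the sequence between gene and switch by -0.37 (-0.70 to -0.04). These last intervals exclude 0, with no trend removed. The switch stretch had a ratio of 0.960 against the intron's 1.18 as scaled here, and with the trend removed 1.02 against 0.911, so the order of these elements depends on the processing.

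The intron contained a dip of signal at Eμ, and the highest ratio among the bins compared in the intron lay there. The bin 114665401 to 114665600 held 23 reads of the knockout and 13 of the wild-type library, and 114665601 to 114665800, with the octamer at 114665635, held 31 and 15, with ratios of 2.02 (0.981 to 4.34) and 2.36 (1.24 to 4.70). As shares of the island, which need no scaling, these were 1.81% of knockout and 1.04% of wild-type reads in the bin from 114665401 and 2.44% and 1.20% in the octamer's bin. On either side, 114664801 to 114665000 held 61 and 80 reads, and 114666201 to 114666400 held 62 and 70. Closer to the dip, 114665001 to 114665200 held 68 and 74 reads, and 114666001 to 114666200 held 55 and 56. The dip was present in both libraries and, by these counts, shallower in the knockout library. Another dip of the intron, without an octamer, lay at 114664401 to 114664600, with 44 and 31 reads against 66 and 83 in 114664001 to 114664200. It was also shallower in the knockout library, so this was not particular to Eμ. The 1 kb bin from 114665001 had 38.4% GC, against 42.6% and 42.5% in the bins on either side. Neither dip was recounted with the GC and level trend removed, which took the ratio of the whole intron from 1.18 to 0.911. The 3 bins of 200 bp called higher in the window were the octamer's bin, its neighbour from 114665801 with 42 knockout and 28 wild-type reads (1.71, 1.04 to 2.87), and 114664401 to 114664600 with 44 and 31 (1.62, 1 to 2.65). They were 3 of 31 bins compared in that island, and the share of bins called higher in the window (2.29%) was below that in the genome (4.53%), so the count itself is no result about the locus. Scaled to total reads 1 bin was called higher, and scaled to background 0. The 1 kb bin from 114665001 held 200 and 157 reads, at a ratio of 1.45 (1.17 to 1.80), just under the 1.5-fold threshold.

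The Ighg3 unit held 480 knockout and 1210 wild-type reads, with a ratio of 0.453 (0.406 to 0.504), and its 6000 bp island (114599201 to 114605200) held 428 and 1098 of them. The difference was spread over the island. All 30 bins of 200 bp had ratios below 1, from 0.104 to 0.685 with a median of 0.472, and 20 of the 30 were lower by the rule. The switch stretch held 54.2% (49.4% to 59.0%) of knockout and 55.9% (52.9% to 58.9%) of wild-type reads of the island. The sequence between gene and switch held 18.9% (15.3% to 23.0%) and 16.9% (14.8% to 19.3%), and that upstream of the switch stretch 26.2% (22.1% to 30.6%) and 25.9% (23.3% to 28.6%). The log2 ratio upstream of the switch stretch differed from that of the switch stretch by 0.13 (-0.24 to 0.51).

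The Ighg3 island had a summit on either edge of the repeats, and the upstream one was broad. The bin with the most reads, 114601001 to 114601200, held 35 knockout and 75 wild-type reads (0.533, 0.346 to 0.806), and both libraries had their own highest bin there. The other summit lay at the upstream edge, where 114603601 to 114603800 held 35 and 70 reads. High signal went on beyond the switch stretch, with 31 and 70 reads in 114604401 to 114604600. Between the summits, 114601801 to 114602000 had the lowest ratio of the 131 bins of 200 bp compared, with 3 knockout and 33 wild-type reads (0.104, 0.0204 to 0.331), at 61% unique positions. The window held 1 match to the κB site of the kappa light chain enhancer, on either strand, at 114600758 in the same island, and 0.173% of all 1 kb bins of chromosome 12 contain such a match.

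The Ighg2b unit held 278 knockout and 615 wild-type reads, with a ratio of 0.516 (0.446 to 0.595), in a pair of islands at either end of its switch stretch. The island upstream (114550601 to 114553400) held 165 and 397 reads. All 14 of its bins compared were below 1, from 0.208 to 0.589, and 7 were lower by the rule. The island next to the gene (114546601 to 114548600) held 65 and 136 reads, with 8 of 9 bins below 1 and 1 lower by the rule. The log2 ratios of the islands differed by 0.20 (-0.30 to 0.70). The switch stretch between 114548001 and 114553000 held 81.7% (76.2% to 86.4%) of knockout and 82.6% (79.1% to 85.7%) of wild-type reads of the pair, and with 44.2% of its positions unique, the gap between the islands cannot be read as an absence of signal. The bin with the most reads, 114551601 to 114551800, held 27 knockout and 57 wild-type reads (0.541, 0.329 to 0.869).

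**Figure D3:**
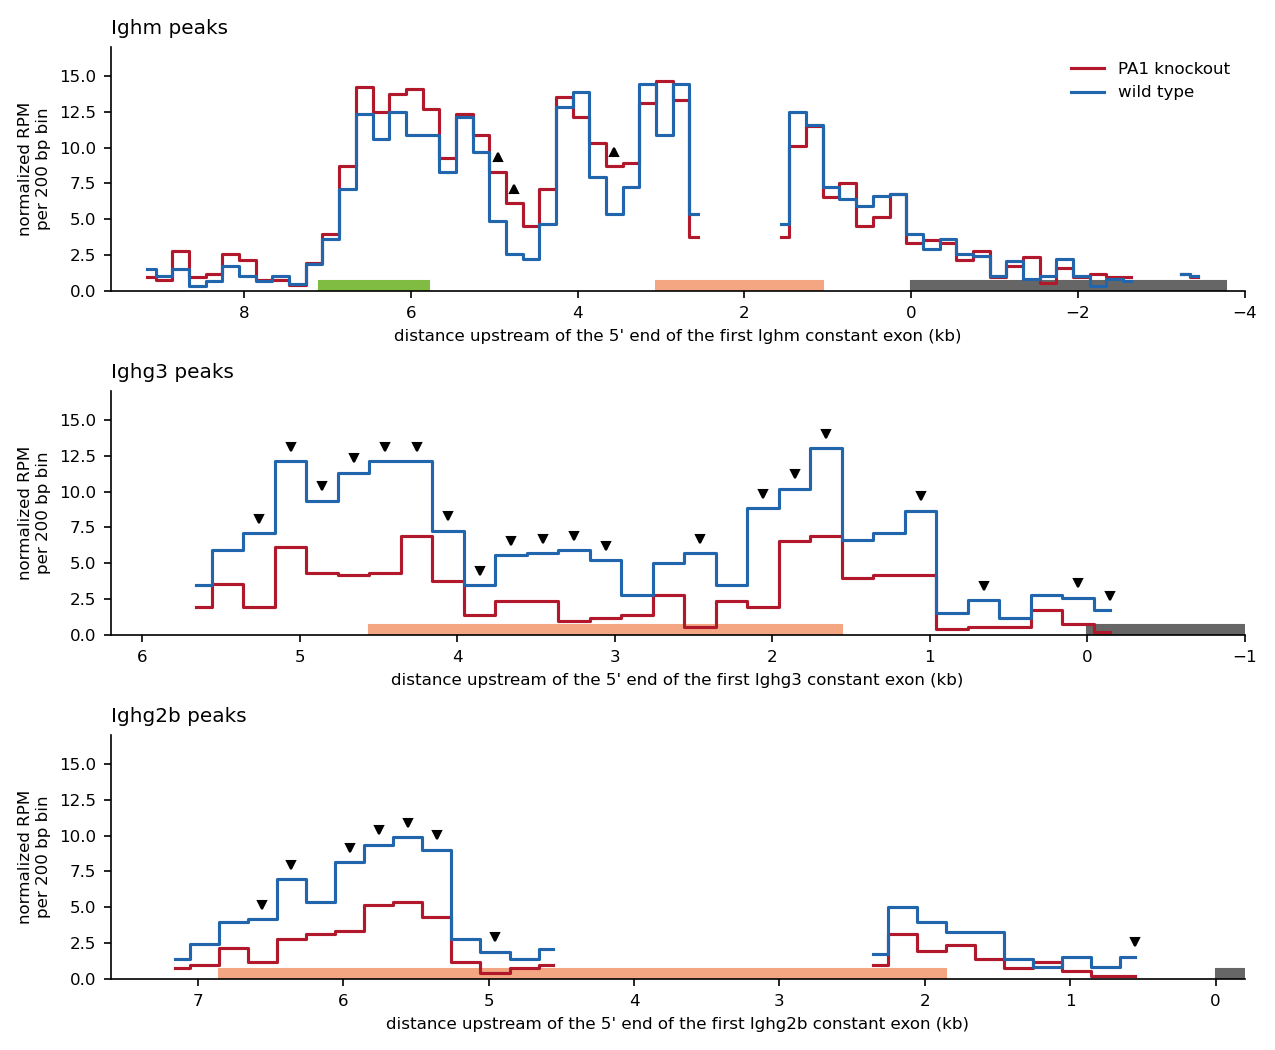
Normalized RPM per 200 bp bin inside the islands of Ighm with J, of Ighg3 and of Ighg2b in the PA1-knockout (red) and wild-type (blue) libraries, against distance from each gene's constant exons with upstream sequence to the left. Blocks at the base mark J segments (green), switch stretches (orange) and constant genes (grey), triangles pointing down or up mark bins lower or higher in the knockout library by the 1.5-fold rule, and no line is drawn between islands. In Ighg3 all 30 bins were lower in height in the knockout library. In the Ighm panel the dip at Eμ and another dip of the intron, from 114664401, were shallower there as scaled here. Neither was recounted with the GC and level trend removed.

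Ighg1, Ighg2c and Ighe held few reads in either library and had no island. The Ighg2c unit held 35 knockout and 59 wild-type reads (ratio 0.677, 0.432 to 1.05), and its switch stretch 11 and 31 (0.405, 0.184 to 0.828). With the GC and level trend removed the ratio of that stretch was 0.544 (0.247 to 1.11), an interval that includes 1. Its log2 ratio differed from that of the Ighg2b switch stretch by -0.25 (-1.27 to 0.77). Most of its difference was in 114533001 to 114534000, with 1 knockout and 15 wild-type reads. The Ighg1 switch stretch held 17 and 33 reads (0.588, 0.307 to 1.09), and the Ighg1 unit 51 and 72 (0.808, 0.553 to 1.17). The Ighe unit held 32 and 30 reads (1.22, 0.716 to 2.07), and its switch stretch 7 and 7. Per kb the Ighg1 unit had 0.327 knockout and 0.404 wild-type RPM, the Ighg2c unit 0.365 and 0.539 and the Ighe unit 0.398 and 0.327, against genome means of 0.392 and 0.362.

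**Figure D4:**
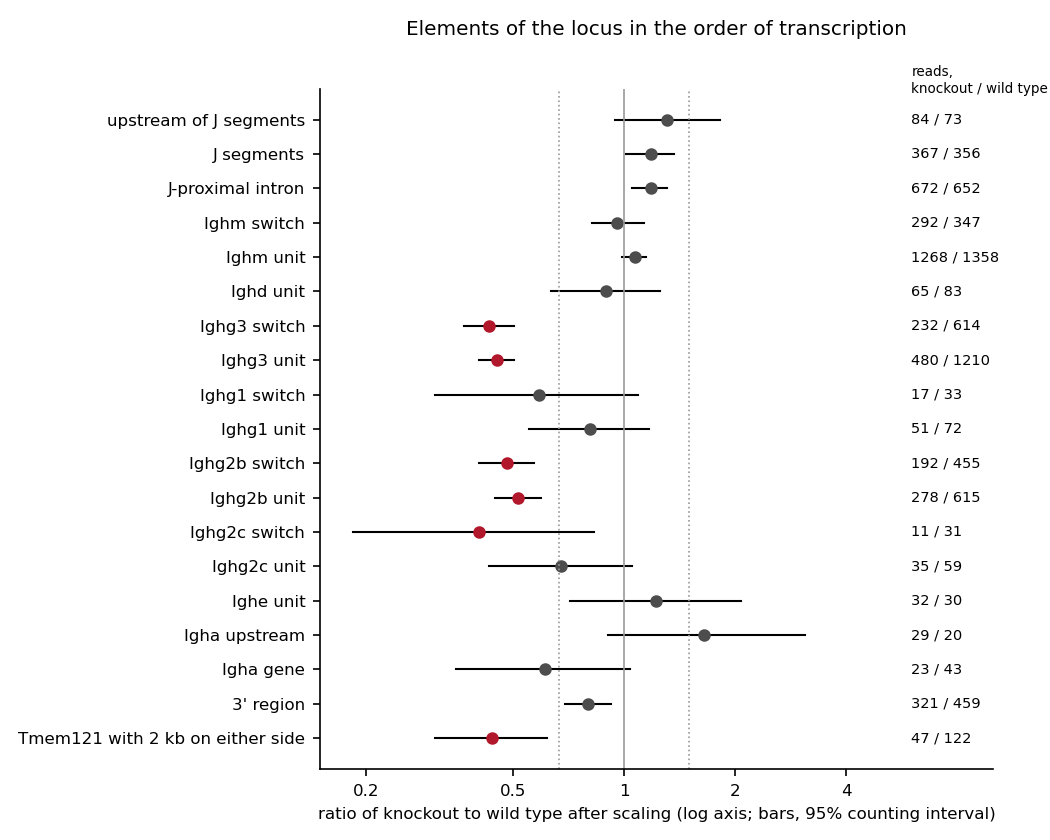
Ratio of PA1-knockout to wild-type reads after scaling for each element, in the order of transcription from top to bottom, with 95% counting intervals as bars and reads of the knockout and wild-type libraries at the right. Dotted lines mark 1.5-fold, and red points are at least 1.5-fold lower with an interval excluding 1, at Ighg3, Ighg2b, Tmem121 and the Ighg2c switch stretch, whose interval included 1 with the GC and level trend removed.

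Beyond the 3′ region, signal was lower in the knockout library again at Tmem121, which encodes a transmembrane protein. Tmem121 and its 2 kb flanks (114422114 to 114429731) held 47 knockout and 122 wild-type reads, at a ratio of 0.440 (0.307 to 0.620). Its islands, 114424201 to 114424800 and 114425601 to 114426200, held 19 against 55 and 12 against 38 knockout and wild-type reads. The log2 ratio of Tmem121 was below that of the 3′ region by -0.86 (-1.39 to -0.33). Across the J side, the 11956 bp upstream of the J segments held 84 knockout and 73 wild-type reads, with a ratio of 1.31 (0.948 to 1.82).

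A search for a strict core of the CTCF motif on both strands found 0 matches in the window, which says only that these letters are absent from it, and 0.00255% of the 1 kb bins of chromosome 12 contain a match. The STAT site, TTC and GAA with 4 free bases between them, was in 61 of the 280 bins (21.8%, against 26.5% on chromosome 12) and in 9 of the 42 bins of the 3′ region. AGCT averaged 4.83 per 1 kb bin on chromosome 12. It reached 87 to 104 in the 2 bins of the Ighm switch stretch, 28 to 48 in those of Igha, 37 to 42 in Ighe, 25 to 39 in Ighg3, 21 to 32 in Ighg2c, 16 to 33 in Ighg2b and 15 to 24 in Ighg1. The signal did not follow these numbers: Igha and Ighe, with more AGCT per kb than Ighg3, had fewer reads in both libraries.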

How the data were processed

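In the files as the authors deposited them, each line is a mapped read with its position, strand and match descriptor, and the score column is 0 throughout. Per the submitters' processing notes, mm9 and SICER were used, in roles not stated. The alignment method was not given in the sources used here. Read 5′ ends were moved 75 bp into the fragment and counted. Scaling was by TMM (trimmed mean of M values, with trims of 30% and 5%) on 12186 promoters (±1 kb, 50 or more reads), a factor of 1.14 on the raw ratio. Intervals are exact conditional binomial (Clopper-Pearson) at 95%; those of log2 differences are normal approximations to counting error. Islands were pooled 200 bp windows at a Poisson probability under 1e-05 (9 or more reads), joined over 200 bp gaps, with 20 or more reads. Switch stretches are runs of bins with 15 or more AGCT. Genes and inverted repeats were placed with BLAST 2.17.0, counts made with Python 3.11.15 and numpy 2.4.6. Every constant gene, every island and its highest bin, and the lower bins with the lowest and highest ratio were named; octamer sequences, other bins and shares were chosen after their values were seen. Members and lists were chosen with earlier results of these data known. The script was tested on simulated data. No sample was pooled or left out of a group.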

Additional observations from a re-analysis of the deposited data

How the results depend on the processing

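Alternatives were other scalings, fragment shifts, reads without a mismatch, equal depth, other minimums and folds, shifted bins and a removed GC and level trend. Under them, 250 of 266 values kept their direction or stayed within their interval, 16 moved and 0 called values changed sign. Shares of reads within a peak were recomputed only with no shift, a 100 bp shift and reads without a mismatch, and 0 of these 90 values moved. The shares of the stretches of the 3′ region were not recomputed. Scaling to total nuclear reads shifted all log2 ratios by -0.12 and to background reads by -0.31. The ratio of the 3′ region was 0.644 when scaled to background and 0.92 with the trend removed, where its interval included 1. The ratio of the J to Cμ intron was 0.95 when scaled to background and 0.911 with the trend removed, so its excess in the knockout library depends on the scaling. The ratio of Ighm was 0.86 when scaled to background. The ratio of Igha ranged from 0.761 to 1.2 and that of Ighd from 0.722 to 0.994, and their intervals included 1 in each of the 9 alternatives. Ighg3 stayed between 0.366 and 0.459 and Ighg2b between 0.417 and 0.538. The number of 1 kb bins lower was 10 to 21, and that higher was 1 with a 100 bp shift, with the trend removed or with bins moved by 500 bp. The number of 200 bp bins higher was 1 when scaled to total reads and 0 when scaled to background; that lower was 26 to 47. The cause of these moves was not tested. Depth limits Igha, Ighd, Ighe, Ighg1 and Ighg2c to the intervals given. No paired analysis was possible because each genotype had 1 library.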
